A study of Sus scrofa with 4 samples.

Results

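The expression of ZIC, SOX and POU3F transcription factors of the epiblast and of neural progenitors was compared between porcine induced pluripotent stem cells with and without a short hairpin RNA that silences LIN28A, whose protein binds RNA and is made in early embryos. The genes were chosen by symbol: ZIC1, ZIC2, ZIC4, ZIC5, SOX1, SOX3, SOX11, POU3F1 and POU3F2. All 9 have a row in the deposited table of 16026 genes, and 8 of them had enough counts to be tested. The control group carries the genotype Negative Control in its labels and the other group shLin28a, with 2 libraries of polyadenylated RNA in each. All 4 come from cells of the Bamei black pig, a Chinese breed, and share a labelled stage of 26.5 days. The deposited table averages both knockdown libraries under 1 name, shLin28a3, as it does both controls under shNC, and the hairpin's sequence is not given in the sources used here. The labels do not tell whether the libraries of a group are separate cultures, so p-values describe the spread between libraries and that spread may be technical. The numbers in control 1, control 2, knockdown 1 and knockdown 2 name the libraries, and no label ties those of the same number to each other.

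ZIC proteins are zinc finger factors of the early embryo that act in the neural plate, the dorsal neural tube and the neural crest; in mammals ZIC1 lies beside ZIC4 and ZIC2 beside ZIC5. SOX proteins bind DNA through an HMG box. The SOXB1 factors SOX1, SOX2 and SOX3 hold neural cells in the progenitor state, and SOX2 is also a core pluripotency factor, whereas the SOXC factors SOX4, SOX11 and SOX12 act as neurons begin to differentiate. POU3F factors share a POU domain with POU5F1. In the mouse, Pou3f1 (Oct6) is made in the epiblast and favours entry into the neural fate, and Pou3f2 (Brn2) acts in neural progenitors and cortical neurons.

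Summed expected counts ranged from 2400985 in knockdown 2 to 11847343 in control 1. Levels are given in FPKM, which corrects counts for transcript length and for the total of the library; fold changes come from edgeR, whose TMM factors also correct for library composition and were 1.10, 1.07, 1.07 and 0.798 in controls 1 and 2 and knockdowns 1 and 2. On TMM-scaled values knockdown 2 therefore stands higher than on FPKM. LIN28A, the targeted gene, was at 32.6 and 17.2 FPKM in control cells and 3.14 and 2.58 after knockdown, with a fitted log2 difference of −2.92 ± 0.49 (SE) and an edgeR adjusted p of 0.259. Of 20 listed epiblast and pluripotency genes, 9 had enough counts to be tested. Among them, POU5F1 was between 16.6 and 43.4 FPKM in the 4 libraries, L1TD1 between 18.32 and 44.98 and SALL2 between 24.05 and 46.34. DNMT3B was between 7.45 and 13.34 FPKM, LIN28B between 10.2 and 25.05 and SALL4 between 3.25 and 19.18. SOX2, counted here with the SOX relatives, was between 53.45 and 108.71 FPKM. In contrast, neither of the 2 NANOG rows exceeded 0.70 FPKM, ESRRB did not exceed 0.03 and ZSCAN10 was at 0 throughout. Markers of fibroblasts, 24 genes in the table, summed to 592 and 956 FPKM in control cells and to 796 and 2087 FPKM in knockdowns 1 and 2. All 24 rows had at least 1 library with counts, but DCN did not exceed 3.08 FPKM, LUM 0.14 and COL6A3 0.04. SPARC, the highest of them in each library, was at 235 and 308 FPKM in control cells and at 307 and 625 after knockdown. The part of these 24 genes in the results below was not tested. No gene in the table was called at an adjusted p under 0.05 in edgeR, which is 0% of 11967 tested genes. At an unadjusted p under 0.05, edgeR gave 510 genes higher and 413 lower, and DESeq2 called 139 genes, 1.16%, after adjustment.

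In the controls the 8 detected genes spanned more than 2 orders of magnitude. ZIC2 was highest at 264 ± 17.2 FPKM (SD, n = 2). It ranked 258 and 290 among all genes in controls 1 and 2, and 235 and 510 in knockdowns 1 and 2. ZIC1 followed at 81.7 ± 15.9 and ZIC5 at 71.5 ± 3.55 FPKM (SD, n = 2), and these neighbours in the order did not differ beyond their spread. SOX11 was at 31.3 ± 1.53, POU3F2 at 25.4 ± 3.44 and ZIC4 at 16.5 ± 5.37 FPKM (SD, n = 2). POU3F1 at 1.62 ± 0.134 and SOX3 at 1.61 ± 0.622 FPKM (SD, n = 2) were indistinguishable at the low end, and SOX1 had no count in any library. The knockdown kept ZIC2 first, and the ranges of ZIC1 and ZIC5 again overlapped, at 43.8 to 69.5 and 37.2 to 74.7 FPKM. At the low end the order differed: POU3F1, at 4.48 to 11.4 FPKM, now overlapped with ZIC4, at 6.88 to 9.58, while SOX3 was at 0.15 to 0.77 FPKM.

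**Figure D1:**
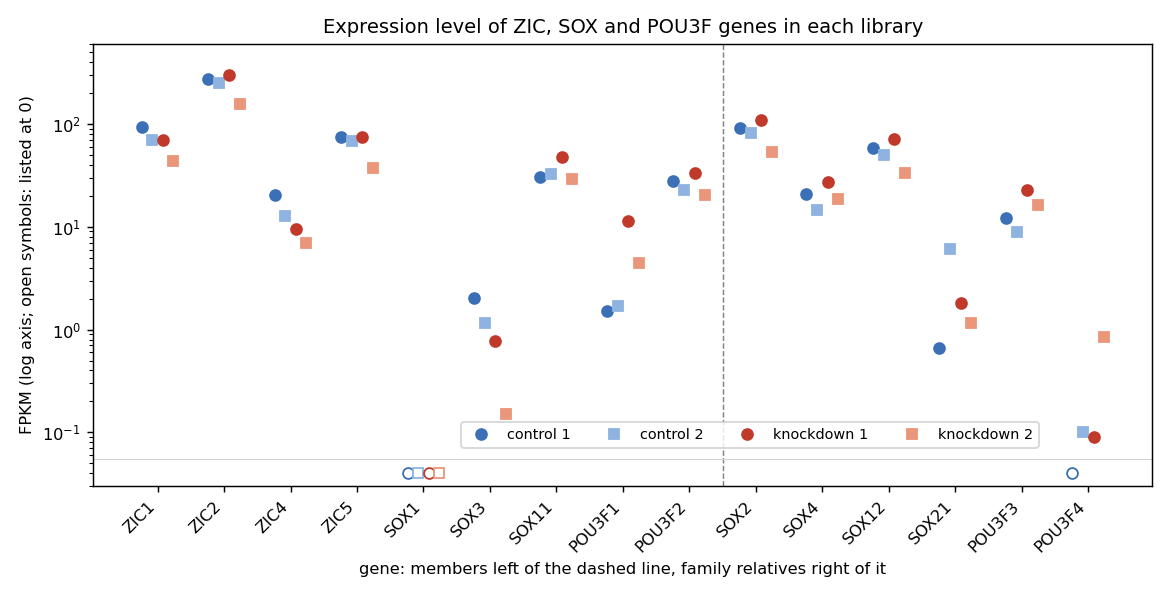
FPKM on a log axis of the 9 genes and of 6 relatives from the same families in each library; every point is 1 library, and open symbols at the bottom mark a value of 0. POU3F1 stands at 1.52 and 1.71 FPKM in control cells and at 11.4 and 4.48 after knockdown, while ZIC2 lies between 155 and 302 FPKM in all 4 libraries.

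POU3F1 was the gene of the 9 with the largest difference. Its gene, on chromosome 6 at 94025133 to 94028053 of Sscrofa11.1, had 50 and 34 counts in controls 1 and 2 and 256 and 30 in knockdowns 1 and 2. Scaled to the library total these are 4.22 (95% exact Poisson interval 3.13 to 5.56) and 4.77 (3.30 to 6.67) CPM, against 31.8 (28.0 to 35.9) and 12.5 (8.43 to 17.8) CPM. Both knockdown libraries were above both controls, with intervals that do not meet, and knockdown 1 was well above knockdown 2. These intervals cover counting error only.

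The log2 fold change of POU3F1 was 2.49 ± 0.38 (SE), or 5.62-fold, with a 95% confidence interval on the log2 scale of 1.53 to 3.45. Its unadjusted edgeR p of 0.000993 placed it 49th of 11967 genes, and the edgeR adjusted p was 0.243, which misses the threshold. DESeq2, an alternative test of the same counts, gave an adjusted p of 0.000406. On the log2 scale after TMM, knockdown 1 lay 2.76 above the control mean and knockdown 2 lay 1.85 above it, against a difference of 0.21 between the controls. In bulk RNA, more cells that make POU3F1 and more POU3F1 RNA in each cell cannot be told apart, and the same holds for every gene below.

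POU3F2, on chromosome 1 at 65835375 to 65842872, was the main POU3F transcript in every library. It was at 27.8 and 22.9 FPKM in control cells and at 33.5 and 20.4 after knockdown, so the groups overlapped on this scale. On TMM-scaled CPM it was at 186 and 158 in control cells and 230 and 188 after knockdown, where the lower knockdown value barely exceeded the higher control. The log2 fold change was 0.28 ± 0.25 (SE), with a confidence interval of −0.34 to 0.90 and an edgeR adjusted p of 0.696.

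Of the relatives outside the 9 genes, POU3F3 (Brn1 in the mouse, a factor of forebrain progenitors) was at 12.04 and 8.99 FPKM in control cells and at 22.7 and 16.2 after knockdown. The groups did not overlap on FPKM or after TMM, and the log2 fold change was 1.10 ± 0.22 (SE) with an unadjusted p of 0.00340 and an adjusted p of 0.315 in edgeR. POU3F4, an X-linked factor of the inner ear and brain, had 0, 1, 1 and 3 counts in controls 1 and 2 and knockdowns 1 and 2, too few to test.

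The make-up of the POU3F family can be compared within each library, where no scaling between libraries enters. POU3F1 made up 3.68% and 5.07% of the family's summed FPKM in control cells, and 16.9% and 10.7% in the knockdown. The share of POU3F2 was 67.2% and 68.0% against 49.4% and 48.5%, and that of POU3F3 was 29.1% and 26.6% against 33.5% and 38.7%. Each of these 3 shares separated the groups without overlap, with the knockdown above for POU3F1 and POU3F3 and below for POU3F2. The shares of a library add up to a whole, so these are not separate results. POU3F2 itself had a log2 fold change of 0.28 ± 0.25 (SE). The ratio of POU3F1 to POU3F2 was 0.0547 and 0.0745 in control cells and 0.342 and 0.220 after knockdown. These ratios were chosen with the values known and carry no test. Of 10 ratios computed between genes of the set and their relatives, 8 separated the groups without overlap. How often shares or ratios of other genes do so was not counted.

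**Figure D2:**
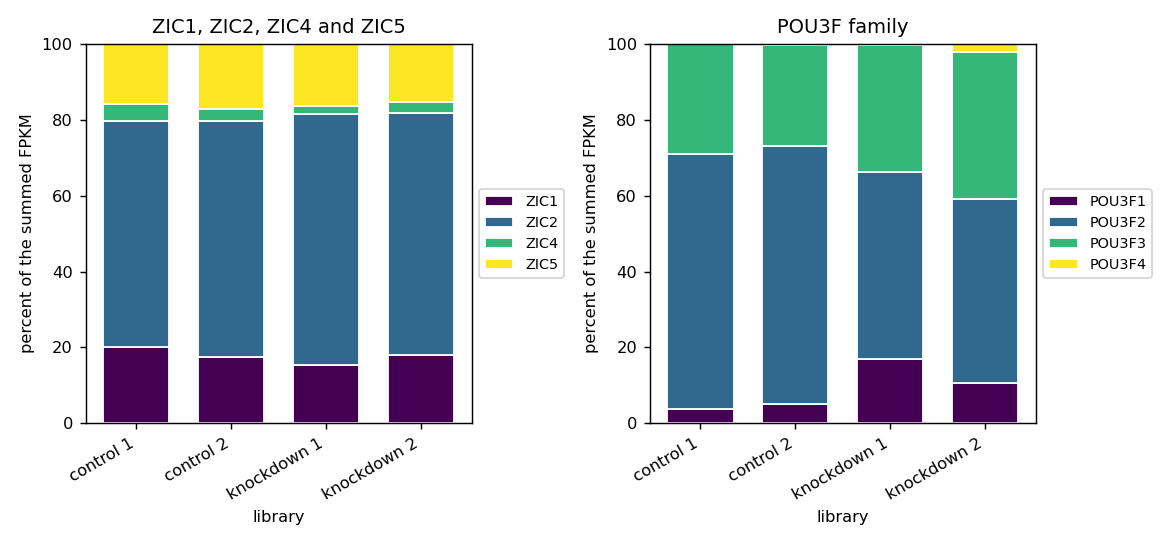
Percent of a group's summed FPKM that each gene contributes, by library, for ZIC1, ZIC2, ZIC4 and ZIC5 (left) and the POU3F family (right). POU3F1 takes 3.68% and 5.07% of its family in control cells and 16.9% and 10.7% in the knockdown. ZIC2 takes 59.6% and 62.3% of the 4 ZIC genes' sum in control cells and 66.3% and 63.9% in the knockdown.

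The ZIC genes lie in pairs. On chromosome 13 ZIC4 spans 87725642 to 87740724 and ZIC1 spans 87740769 to 87750258, with 44 bases between the annotated genes. On chromosome 11 ZIC5 spans 68821733 to 68830472 and ZIC2 spans 68840802 to 68845441, with 10329 bases between them. The expected counts of ZIC1 and of ZIC2 were not whole numbers in any library, yet their sum was whole in all 4 (16297, 8190, 10222 and 1713, within 0.01). RSEM divides reads that match more than 1 gene, so where reads are shared by ZIC1 and ZIC2, their separate values are estimates. All ZIC4 and ZIC5 counts were whole.

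ZIC4, which with ZIC1 acts in the dorsal neural tube and the cerebellum, was at 20.3 and 12.8 FPKM in controls 1 and 2 and at 9.58 and 6.88 in knockdowns 1 and 2. Both knockdown libraries were below both controls, and the controls differed from each other by 0.63 on the log2 scale after TMM, with control 2 the lower. In edgeR the log2 fold change was −0.79 ± 0.27 (SE), with a confidence interval of −1.48 to −0.10. Its unadjusted edgeR p was 0.0312 and the adjusted p was 0.600.

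ZIC1, its neighbour, was at 93.0 and 70.4 FPKM in control cells and at 69.5 and 43.8 after knockdown. Knockdown 1 lay just below control 2, so the groups were separate by a narrow margin. Its log2 fold change was −0.33 ± 0.28 (SE), with a confidence interval of −1.03 to 0.37 and an edgeR adjusted p of 0.683. Within libraries the ratio of ZIC1 to ZIC4 was 4.57 and 5.52 in control cells and 7.26 and 6.36 after knockdown.

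ZIC2, a gene mutated in human holoprosencephaly, was at 276 and 252 FPKM in controls 1 and 2 and at 302 and 155 in knockdowns 1 and 2. The knockdown libraries lay on either side of the controls. The log2 fold change was −0.03 ± 0.30 (SE), and its confidence interval of −0.78 to 0.72 does not show equal levels. ZIC5, a factor of the neural crest and dorsal neural tube in the mouse, was at 74.0 and 69.0 FPKM in control cells and at 74.7 and 37.2 after knockdown, again with knockdown 1 above and knockdown 2 below the controls. Its log2 fold change was −0.18 ± 0.29 (SE), with a confidence interval of −0.91 to 0.55. The ratio of ZIC2 to ZIC5 was 3.73 and 3.65 in control cells and 4.05 and 4.17 after knockdown. For ZIC2 and ZIC5 the edgeR adjusted p was 0.976 and 0.828.

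Of the summed FPKM of ZIC1, ZIC2, ZIC4 and ZIC5, ZIC4 made up 4.39% and 3.16% in control cells and 2.10% and 2.83% after knockdown. ZIC2 made up 59.6% and 62.3% in control cells and 66.3% and 63.9% after knockdown. For both genes the groups did not overlap, by a narrow margin, and ZIC4 had 53 counts in knockdown 2. The values of ZIC1 and ZIC2 in the sum are estimates where reads are shared. How often shares of other genes separate the groups was not counted. The sum itself was 463 and 404 FPKM in control cells and 456 and 243 after knockdown, with overlap.

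Of the SOXB1 genes in the set, SOX1 was listed at 0 in every library. A floor of 3 counts corresponds to 0.253, 0.421, 0.372 and 1.25 CPM in controls 1 and 2 and knockdowns 1 and 2, so lower levels were not detectable at this depth. SOX3, on the X chromosome at 115017704 to 115020601, had 67 and 23 counts in control cells and 17 and 1 after knockdown. These are 5.66 (95% exact Poisson interval 4.38 to 7.18) and 3.23 (2.05 to 4.84) CPM, against 2.11 (1.23 to 3.38) and 0.416 (0.0105 to 2.32) CPM. Both knockdown libraries were below both controls, but the intervals of control 2 and the knockdown libraries overlap.

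The log2 fold change of SOX3 was −1.45 ± 0.64 (SE), with an unadjusted p of 0.0707 and an adjusted p of 0.606 in edgeR. SOX3 reached the count filter of 1.32 CPM in both controls and in 1 knockdown library. SOX2, the abundant SOXB1 gene, was at 91.9 and 80.9 FPKM in control cells and at 109 and 53.5 after knockdown. The ratio of SOX3 to SOX2 was 0.0223 and 0.0145 in control cells and 0.00708 and 0.00281 after knockdown, so SOX2 made up at least 97.8% of the SOXB1 signal in each library.

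Among the SOXC genes, SOX11, on chromosome 3 at 129797438 to 129800568, was at 30.2 and 32.4 FPKM in control cells and at 47.6 and 28.9 after knockdown. The groups overlapped on FPKM because knockdown 2 was the lowest library. On TMM-scaled CPM SOX11 was at 82.2 and 91.0 in control cells and at 133 and 109 after knockdown, with no overlap. In edgeR the log2 fold change was 0.48 ± 0.22 (SE), with a confidence interval of −0.08 to 1.04, an unadjusted p of 0.0783 and an adjusted p of 0.606 in edgeR.

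Its relative SOX4 was at 20.8 and 14.6 FPKM in control cells and at 27.6 and 18.4 after knockdown, with a fitted log2 difference of 0.59 ± 0.26 (SE), and SOX12 had a log2 fold change of 0.11 ± 0.30 (SE). The ratio of SOX11 to SOX4 was 1.46 and 2.23 in control cells and 1.73 and 1.57 after knockdown, with overlap. SOX21, a SOXB2 factor that opposes SOXB1 activity in neural progenitors, was at 0.66 and 6.14 FPKM in controls 1 and 2 and at 1.81 and 1.17 after knockdown, so the controls lay on either side of the knockdown. SOX14, the other SOXB2 gene, is not analysed here.

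Over the 8 tested genes, edgeR called none after adjustment, at an adjusted p under 0.05. POU3F1 was higher at an unadjusted p under 0.05, where 4.26% of all tested genes were, and ZIC4 was lower, where 3.45% were. The median log2 fold change of the 8 genes was −0.11, with 3 positive and 5 negative, against a median of 0.01 over all tested genes, of which 51.2% were positive. On TMM-scaled CPM both knockdown libraries were above both controls for 3 of the 8 genes, POU3F1, SOX11 and POU3F2, as for 18.8% of all tested genes. They were below both controls for ZIC4, ZIC1 and SOX3, also 3 of 8, as for 22.9% of all tested genes. With FPKM or total counts, POU3F1 alone of the 8 was above without overlap, and the 3 genes below were the same. The share of all tested genes without overlap was not counted on these scales, so these counts have no background beside them. Scaling by total counts moved the median log2 fold change of all tested genes to −0.18.

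**Figure D3:**
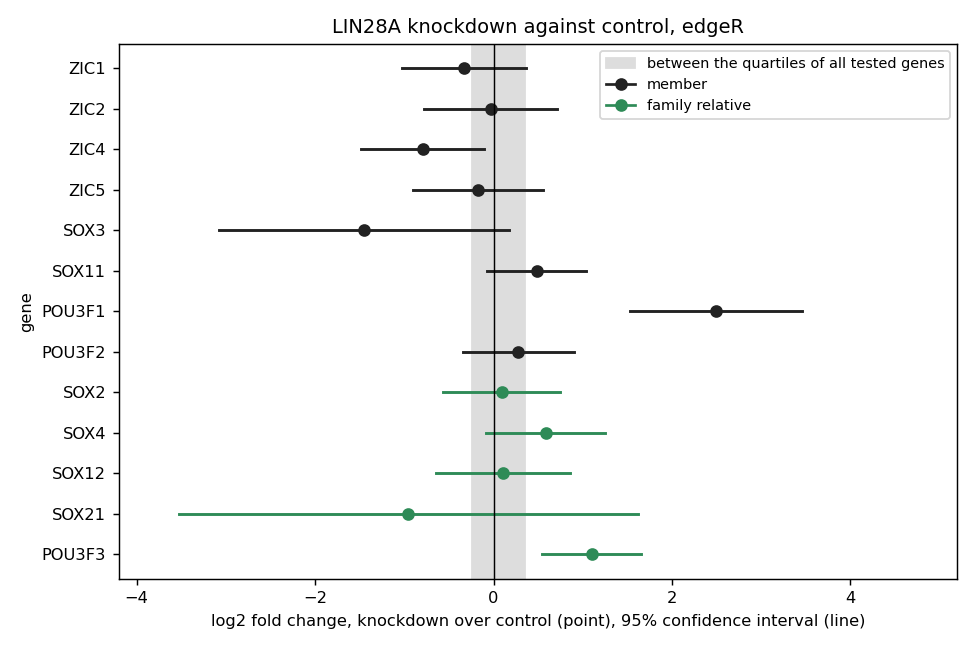
Log2 fold change of knockdown over control from edgeR (points) with 95% confidence intervals (lines) for the 8 tested genes (black) and 5 tested relatives (green); the grey band spans the range between the quartiles of all tested genes, −0.24 to 0.36. The intervals of POU3F1, at 1.53 to 3.45, and of the relative POU3F3, at 0.55 to 1.65, lie above 0, and that of ZIC4, at −1.48 to −0.10, lies below it.

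The neural and other lists beside the 9 genes were described by their counts in the fit over all genes, with no test of a list. Of 29 neural plate and progenitor genes, 27 have a row and 16 were tested. Their median log2 fold change was 0.15, with 9 positive and 7 negative, and none had an unadjusted edgeR p under 0.05 in either direction. Of all tested genes, 4.26% were higher and 3.45% lower at that threshold. NES, the intermediate filament nestin of neural progenitors, was at 143 and 96.4 FPKM in control cells and at 292 and 112 after knockdown, with a fitted log2 difference of 0.90 ± 0.42 (SE). IRX3, a homeobox factor of the neural tube, was at 7.38 and 11.4 against 10.4 and 15.9 FPKM. DLL1, a ligand of Notch receptors, was at 24.4 and 16.1 against 35.1 and 16.6 FPKM, with overlap. Among progenitor genes of the anterior neural plate, RAX was at 0 throughout, OTX2 did not exceed 0.16 FPKM, SIX3 0.11 and LHX2 1.29. SIX6, which had enough counts to be tested, was between 0.87 and 1.80 FPKM, and PAX6 was between 7.72 and 19.2 FPKM.

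The neuronal list had 15 tested genes of 18, with a median log2 fold change of 1.11. There were 13 positive and 2 negative values, and 9 genes were higher at an unadjusted edgeR p under 0.05 and none lower. Of all tested genes, 4.26% were higher and 3.45% lower at that threshold. DESeq2 called 6 of the 15 higher after adjustment, where it called 0.869% of all tested genes higher, and edgeR called none. NHLH2, a basic helix-loop-helix factor of young neurons, was at 0.17 and 0.33 FPKM in control cells and at 4.35 and 3.52 after knockdown, with a fitted log2 difference of 4.22 ± 0.45 (SE). Its relative NHLH1 was at 2.08 and 1.96 against 11.7 and 5.04 FPKM, with a fitted log2 difference of 2.23 ± 0.32 (SE). NEUROD4, a proneural factor, was at 2.08 and 2.79 against 10.03 and 9.38 FPKM. The edgeR adjusted p of these 3 genes was 0.179, 0.241 and 0.219. These 3 were named because their p was the smallest of the list. On TMM-scaled CPM both knockdown libraries were above both controls for 9 of the 15 genes, these 3 among them, against 18.8% of all tested genes. They were below both controls for none, against 22.9% of all tested genes.

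**Figure D4:**
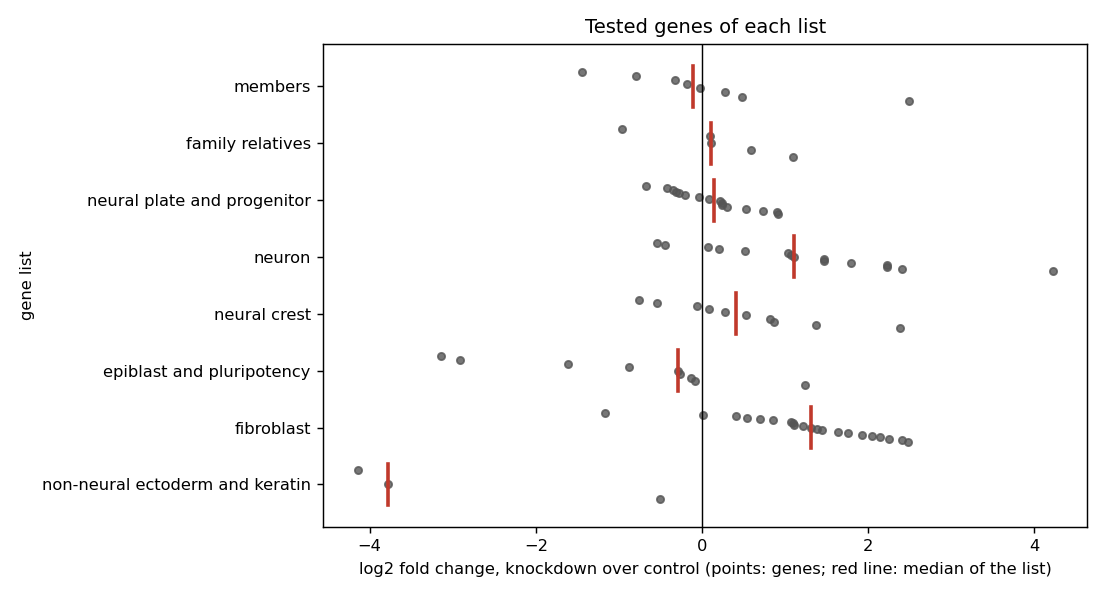
Log2 fold change of knockdown over control for each tested gene (grey points) of the 9-gene set, named members in the plot, and of 7 other lists, with the median of each list in red. The neuronal list has a median of 1.11 and the neural plate and progenitor list one of 0.15, and the 9-gene set, of which 8 are plotted, has one of −0.11.

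Of the neural crest list, 10 of 13 genes were tested, with a median log2 fold change of 0.40. At an unadjusted edgeR p under 0.05, 1 gene was higher and 2 were lower, against 4.26% and 3.45% of all tested genes. TFAP2A, a factor of neural crest and surface ectoderm, was at 24.8 and 27.7 FPKM in control cells and at 38.1 and 40.2 after knockdown. Its paralogue TFAP2B was at 21.9 and 23.6 against 14.9 and 10.1 FPKM. PAX3, a factor of the dorsal neural tube and neural crest whose domain overlaps that of the ZIC genes, was at 10.4 and 13.8 against 8.25 and 4.13 FPKM. The 3 genes had an edgeR adjusted p of 0.557, 0.606 and 0.606.

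Of 20 epiblast and pluripotency genes, 9 were tested, with a median log2 fold change of −0.29 and 8 of 9 negative. In edgeR, 4 were lower at an unadjusted p under 0.05, LIN28A and SALL4 among them, against 3.45% of all tested genes. LIN28A, the hairpin's target, is 1 of these 4 and of the 8 negative genes. KLF4 was higher at that threshold, as were 4.26% of all tested genes. It was at 3.86 and 2.74 FPKM in control cells and 5.92 and 7.73 after knockdown. FGF5, an epiblast marker often named with POU3F1, had 1 count in knockdown 2 and none in the other libraries. In the fibroblast list 20 of 21 tested genes were positive, with a median of 1.31. At an unadjusted edgeR p under 0.05, 1 was higher and 1 lower, and DESeq2 called none after adjustment. On TMM-scaled CPM 3 of the 21 were above both controls and 1 was below, against 18.8% and 22.9% of all tested genes. The list's median difference from the control mean was −0.45 and 0.45 in controls 1 and 2, and −0.06 and 2.16 in knockdowns 1 and 2. COL1A1 was at 17.6 and 52.8 FPKM in control cells and at 56.5 and 206 after knockdown, COL6A2 had a log2 fold change of 1.93 ± 0.69 (SE), and THY1 one of −1.17 ± 0.25 (SE). Of the keratin and surface ectoderm list only KRT8, KRT18 and GATA3 were tested, all with a negative log2 fold change; KRT8 was at 14.5 and 38.9 against 1.11 and 1.85 FPKM.

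The tested genes nearest to a profile were found by the Euclidean distance between log2 CPM values, each centred on its mean over the 4 libraries. For POU3F1, whose own range over the libraries was 2.87 on the log2 scale, they were SAMD11 at a distance of 0.228, STMN4 at 0.239 and UNCX at 0.258. STMN4, a microtubule regulator of the stathmin family, was at 0.78 and 0.98 FPKM in control cells and at 6.41 and 3.03 after knockdown. UNCX, a homeobox factor of somites and neural cells, was at 0.34 and 0.43 against 4.16 and 1.26 FPKM, and SAMD11 was at 0.38 and 0.45 against 2.78 and 1.42. All 3 follow the order of POU3F1, lowest in control 1 and highest in knockdown 1. For ZIC2, which spanned 0.52 on the same scale, the nearest were TRIM28, a chromatin corepressor, at 0.0256, ELOF1, a transcription elongation factor, at 0.0259 and UHRF1, which acts in maintenance DNA methylation, at 0.0276. With 4 libraries such distances only describe the order and spacing of the values.

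The genes next to POU3F1 on chromosome 6 were tested in the same fit. UTP11, 18243 bases to the lower-coordinate side, had a log2 fold change of 0.13 ± 0.21 (SE). RRAGC, the nearest tested gene on the other side at 757852 bases, had one of 1.21 ± 0.74 (SE). Around the ZIC pairs, PCCA lies 75481 bases from ZIC2 and had a log2 fold change of 0.09 ± 0.22 (SE), and CLYBL lies 53410 bases from ZIC5 and had one of 0.31 ± 0.29 (SE). No other tested gene with a named symbol lies within the stretch between either pair, and beyond ZIC4 the next was PLSCR1, 856072 bases away, at −0.24 ± 0.29 (SE).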

How the data were processed

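One table was used. Its expected counts were estimated by the authors with Bowtie2 and RSEM 1.2.12 on Sscrofa11.1, per the submitters' processing notes; strandedness is not given in the sources used here. A second set of deposited columns was read as FPKM, a unit that the header does not name: for SOX2, SOX11, SOX12, SOX4, POU3F1, POU3F2 and POU3F3, count over FPKM and summed counts gave a length 131 to 145 bases below the gene length in every library. Symbols replaced by dates on 22 rows were restored from RefSeq by identifier.

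The quasi-likelihood test of edgeR 4.0.16 in R 4.3.3 was run on rounded expected counts (TMM, filterByExpr, no covariate, Benjamini-Hochberg adjustment over 11967 genes); standard errors were derived from its F statistic. DESeq2 1.42.0 and limma 3.58.1 served as alternatives. The code was tested on simulated data. Log2 CPM for single libraries used a prior count of 2. Genes and lists were chosen with earlier results of these data known. Named are the 9 genes, their relatives, LIN28A, the 3 genes of smallest p in each other list, and the 3 nearest profiles to POU3F1 (smallest p) and ZIC2 (highest FPKM). Genes named by position, as near-zero markers, or as expressed markers beside those, were chosen after their values were seen. Some genes of these lists are not reported here and were left out of the lists' counts.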

Additional observations from a re-analysis of the deposited data

How the results depend on the processing

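Each value was recomputed under 12 alternatives. The log2 fold changes of ZIC1, ZIC4, SOX3, SOX11, POU3F1 and POU3F2 kept their sign in all 12, and those of ZIC2 and ZIC5 did not: with a library left out, ZIC2 ranged from −0.32 to 0.18 and was above 0 without control 1 (0.012) and without knockdown 2, and ZIC5 ranged from −0.50 to 0.054, above 0 without knockdown 2. Without the replicate block given at the end, POU3F1 alone passed an adjusted p of 0.05 under any, at 2.48 with every gene of at least 1 count (adjusted p 0.0417), 2.50 in DESeq2 (0.000406) and 1.91 without knockdown 1 (0.0474). Over these 11 alternatives its adjusted p ranged from 0.000406 to 0.744. Leaving out each library moved the log2 fold change of POU3F1 between 1.91 and 2.82, ZIC4 between −1.07 and −0.45, ZIC1 between −0.49 and −0.14, SOX3 between −2.95 and −1.04, SOX11 between 0.32 and 0.59 and POU3F2 between 0.12 and 0.40. POU3F2 was at 0.05 on log2 FPKM plus 1 or 0.1.

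Genes called, 0 in edgeR, numbered 8 with total counts (2 higher, 6 lower), 40 with every gene of at least 1 count (28 and 12), 139 in DESeq2 (104 and 35), 1 with limma on log2 FPKM plus 1 (lower) and 2 on log2 FPKM plus 0.1 (1 in each direction). They ranged from 0 to 1204 with a library left out (0 to 1110 higher, 0 to 94 lower), the most without knockdown 1, where knockdown 2 is alone and is assumed to vary like the controls. Of the 8 tested genes, 1 was above both controls with total counts and 1 on FPKM, and 3 were below on each of these scales. With a library left out, 3 to 5 were above the remaining controls and 3 to 5 below. Those counts set 1 library against 2, which separate more readily than 2 against 2. The share of all tested genes was not counted for these settings. Leaving out libraries from these counts was chosen after seeing the data. Of 348 values of 29 other named genes, 287 kept sign and side, 42 were called and 19 changed sign. SOX2 was at −0.08 with total counts, −0.17 and −0.18 on log2 FPKM plus 1 and 0.1 and −0.25 without knockdown 1, and SOX12 at −0.056, −0.15, −0.16 and −0.27 in the same order and 0.38 at most, without knockdown 2. SOX21 ranged from −1.85 to 1.42 with a library left out, positive without control 2, and GATA3 from −1.14 to 0.33, positive without control 1. TRIM28 was at 0 with DESeq2 size factors, 0.001 in DESeq2, 0.04 without control 1 and 0.20 without knockdown 2. ELOF1 was at 0.017, 0.018, 0.02 and 0.18 in that order, and UHRF1 at 0.16 without knockdown 2. The lowest values of these 3, without knockdown 1, were −0.32, −0.30 and −0.34. The cause of these shifts was not tested. With the library number, 1 or 2, as a replicate block, a fit chosen after seeing the data, edgeR called 1338 genes, 1032 higher and 306 lower. POU3F1 was then at 2.48 (adjusted p 1.83e-12), ZIC4 at −0.80 (0.0218) and SOX3 at −1.57 (0.0477), and no other gene of the 9 was called. This fit leaves 1 residual degree of freedom, and edgeR gave every gene the trended spread with none of its own (prior degrees of freedom infinite, against a median of 3.3 without the block), so its p-values do not carry a gene's own replicate error. No label says that a number marks a shared culture or day. Across 11967 genes the deviations of control 1 and knockdown 1 from their group means correlated at 0.56. With 2 libraries per group, swapping the numbers within either group would only reverse the sign of this value. It therefore cannot show whether libraries of the same number belong together. In knockdown 2 depth limits SOX3, at 1 count, and POU3F1, at 30.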
